A study of Mus musculus with 18 samples.

Results

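Fragments of mitochondrial tRNA-arginine (mt-TR) were compared between HH and CH mice, which carry the same mitochondrial DNA (mtDNA), that of C3H/HeN, and differ in the nuclear genome. The first letter of a strain names the nucleus and the second the mtDNA, with H for C3H/HeN and C for C57BL/6J. HH is wild type, and CH is a mitochondrial-nuclear exchange (MNX) strain in which the C57BL/6J nucleus is combined with C3H/HeN mtDNA. The comparison takes all libraries with mtDNA H, 3 of HH and 3 of CH, out of 18 libraries of 6 strains, and all were made from the liver of female mice. It asks whether the places where mt-TR fragments begin and end, and their lengths, differ with the nucleus when the mtDNA does not.

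The study's methods describe adult animals, with MNX mice made by pronuclear transfer and bred in-house and wild-type mice bought from vendors, so the nuclear genome, the making of the strain and the colony cannot be told apart in this comparison. Intact small RNA was pooled before the libraries were made, and a replicate is therefore a library. Nothing in the labels says that the libraries of a strain came from separate animals, so p-values measure the spread between these libraries, which may be technical. RNA was pretreated to take off methyl groups and blocked ends that stop adapters or reverse transcriptase, which all 6 libraries share.

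Mitochondrial tRNAs are cut out of long transcripts of the mitochondrial genome and then receive a CCA tail, to which the amino acid is attached. The enzymes that do this, and most nucleases that could cut a tRNA further, are encoded in the nucleus and imported. Pieces of tRNA are called tRNA-derived fragments (tRF), and are named 5′ fragments if they keep the first base and 3′ fragments if they keep the CCA.

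The gene, mt-Tr (ENSMUSG00000064361.1), lies on the plus strand of chromosome M from 9808 to 9875 in mm10, is a single exon of 68 nt, and is annotated as a mitochondrial tRNA. Mature mt-TR of mtDNA H is 73 nt long with its CCA. It differs from the mtDNA C form, of 71 nt, by 1 T and 1 A more in a run of T and A bases of the D arm. The T run covers nt 11 to 14 in H and the A run nt 15 to 23. These sequences are shown because every start and end below is counted on the H form, with nt 1 as the first base, and because the runs, in capitals, hold a large share of the starts.

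mature mt-TR, mtDNA H: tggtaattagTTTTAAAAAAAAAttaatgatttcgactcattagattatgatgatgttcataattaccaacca
mature mt-TR, mtDNA C: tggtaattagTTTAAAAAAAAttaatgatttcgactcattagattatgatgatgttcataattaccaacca

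Past the runs lie the anticodon stem, with the anticodon loop at nt 31 to 37 (9836 to 9842) around the anticodon at nt 33 to 35, a short variable region, and the T stem and T loop, with the T loop at nt 52 to 57 (9857 to 9862). The next set is shown because its members were the most abundant fragments of HH or CH and stand for the kinds of fragment described below. A pair of them begin at nt 1 and end at nt 54, in the T loop (between 9859 and 9860), or at nt 45, in the variable region (between 9850 and 9851). Others begin in the T run, at nt 11 or 12, or in the anticodon loop, at nt 31. Capitals again mark the runs.

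nt 1 to 54: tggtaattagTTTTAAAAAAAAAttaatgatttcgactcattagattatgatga
nt 1 to 45: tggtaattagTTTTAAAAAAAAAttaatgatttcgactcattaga
nt 11 to 54: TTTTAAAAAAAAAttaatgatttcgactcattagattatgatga
nt 12 to 73: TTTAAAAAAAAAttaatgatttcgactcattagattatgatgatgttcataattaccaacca
nt 31 to 73: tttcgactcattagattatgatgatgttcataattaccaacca

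The end at nt 54 is 19 nt before the mature end and is called the site in what follows. The table held reads of 40 to 69 nt, so fragments that begin at nt 1 could not reach the mature end, and fragments with the CCA could begin only at nt 5 to 34. A 5′ and a 3′ fragment were therefore never the same read. Of 121943 reads in the table, 17148 belonged to the 6 libraries, in 409 different fragments.

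Depth differed between the strains. The HH libraries held 4233, 6596 and 3578 reads and the CH libraries 191, 232 and 2318, so that CH replicates 1 and 2 were shallow. The table holds only mt-TR reads, so sequencing depth and library yield cannot be told apart from the content of mt-TR. In bulk liver, fewer cells and less RNA per cell cannot be told apart either. Read numbers were therefore not compared as amounts of mt-TR. The HH libraries held 235, 251 and 256 different fragments, CH replicates 1 and 2 held 58 and 55, and CH replicate 3 held 230. Only 38 fragments were seen in all 6 libraries. By a chi-square test over fragments, the p was 0.0893 for CH replicates 1 and 2, 0.0864 for CH replicates 1 and 3 and 0.0318 for CH replicates 2 and 3. At these depths such a p does not show that they are the same, and all were kept as separate libraries. The authors mapped each library to its own mtDNA type without mismatches, so all 409 fragments matched the H sequence by construction. The table holds no other transcript, so the tissue and the nucleus could not be checked.

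Most reads of either strain kept an end of mt-TR. Reads that began at nt 1 or ended with the CCA made up 80.8% ± 7.88 of reads in HH and 83.5% ± 5.50 in CH (SD, n = 3 here and below). The rest were internal fragments and 3′ fragments that lacked part of the CCA or more.

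**Figure D1:**
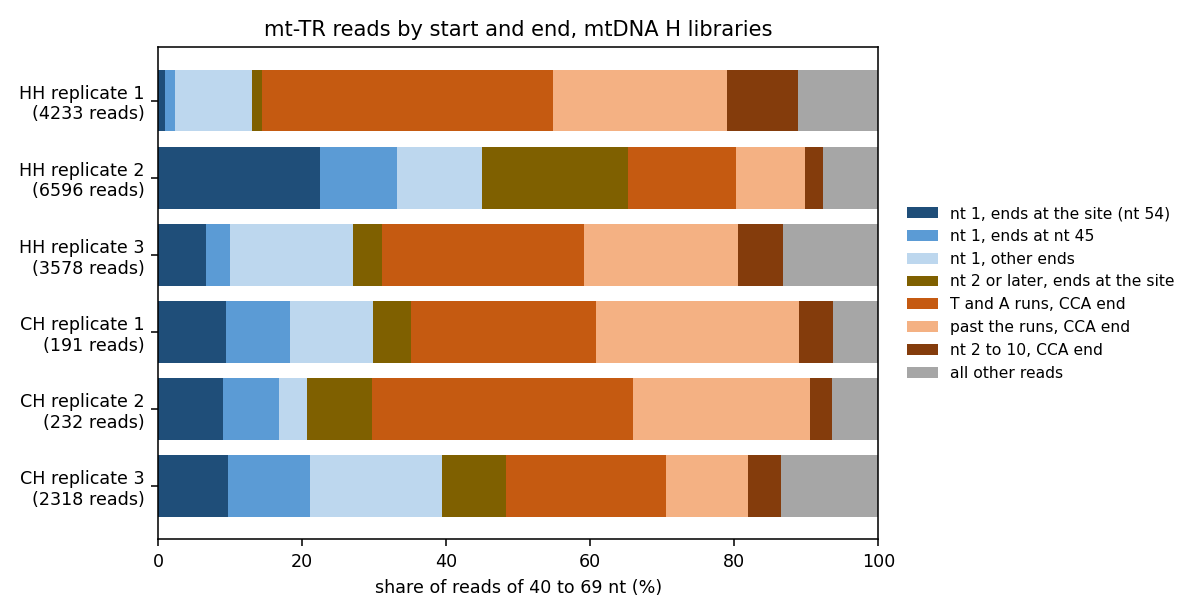
Share of reads (%) of each of the 6 libraries with mtDNA H, split by where reads begin and end, with the number of reads beside each bar. HH replicates 1 and 2 stand at opposite ends, with 13.1% and 45.01% of reads that begin at nt 1, and the CH libraries lie between them.

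Reads that begin at nt 1, the 5′ fragments, made up 13.1%, 45.01% and 27.1% of reads in HH replicates 1 to 3. In CH replicates 1 to 3 they made up 29.8%, 20.7% and 39.4%. Every CH value lay inside the range of the HH values, which spanned 31.9 percentage points. The means were 28.4% ± 16.0 in HH and 29.99% ± 9.37 in CH, and the difference of -1.58 percentage points was smaller than the spread between libraries (two-sided exact permutation test, p = 0.9). With 3 libraries against 3 the smallest p this test can give is 0.1. After Benjamini-Hochberg adjustment over the 15 measures compared between HH and CH, every adjusted p was 1 by the exact permutation test.

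Reads with the mature CCA, the 3′ fragments, ran the other way from library to library. They made up 74.3%, 27.0% and 55.7% of reads in HH and 58.6%, 63.8% and 38.2% in CH. In both strains the library with the most 5′ fragments had the fewest 3′ fragments. The means, 52.3% ± 23.8 and 53.5% ± 13.5, differed by -1.19 percentage points (exact permutation test, p = 0.9). The 95% Wilson interval, which covers counting error only, was 25.97 to 28.1 in HH replicate 2 and 72.96 to 75.6 in HH replicate 1. For CH replicate 1, with 191 reads, the interval was 51.6 to 65.4.

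The completeness of the CCA showed little of that spread in percentage points. Among reads that ended within the tail, at nt 71 to 73, the CCA was complete in 91.6% ± 2.20 in HH and 91.96% ± 5.08 in CH. Nearly all others stopped 1 base short, at nt 72, with 7.57% ± 1.82 in HH and 7.49% ± 4.13 in CH.

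Between the 5′ end and the anticodon, starts gathered in the T and A runs. Reads that begin in the runs made up 48.9%, 36.8% and 39.3% in HH and 35.1%, 48.7% and 37.1% in CH. The groups overlapped almost wholly, with means of 41.7% ± 6.41 and 40.3% ± 7.35 (exact permutation test, p = 0.7). The most used base of the T run was nt 11 or nt 12 in 5 of the 6 libraries. Starts at nt 11 took 5.48%, 12.5% and 4.72% of reads in HH and 4.19%, 11.2% and 7.64% in CH. Starts at nt 12 took 5.27%, 8.17% and 3.89% in HH and 9.42%, 6.90% and 6.99% in CH.

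Starts ahead of the runs were the rarest class. Reads that begin at nt 2 to 10 made up 12.1%, 7.96% and 9.75% in HH and 5.76%, 4.31% and 9.97% in CH, so only the deep CH library reached the HH values. The means were 9.94% ± 2.09 and 6.68% ± 2.94 (exact permutation test, p = 0.3). In the libraries of at least 1000 reads, with 1 CH library left, the difference of 3.27 percentage points became -0.0213.

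Reads that begin past the runs, at nt 24 or later, made up 19.96% ± 8.51 in HH and 23.02% ± 8.42 in CH (exact permutation test, p = 0.5). Most of them began in the anticodon loop, where the tRNA is single-stranded. Starts at nt 31 to 34, the part of the loop that reads of 40 nt or more can begin in, took 12.1% ± 5.31 of reads in HH and 15.9% ± 6.58 in CH. At nt 31, the first base of the loop, the share was 6.24%, 2.15% and 4.16% in HH and 8.90%, 7.33% and 1.86% in CH. The lowest value of each strain fell in the library with the most 5′ fragments, where shares of all other reads are lowered. Within CCA-ended reads the lowest share at nt 31 was 6.72% in HH, in replicate 3, and 3.73% in CH, again in replicate 3. None of the 34 start positions had groups without overlap (0%).

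**Figure D2:**
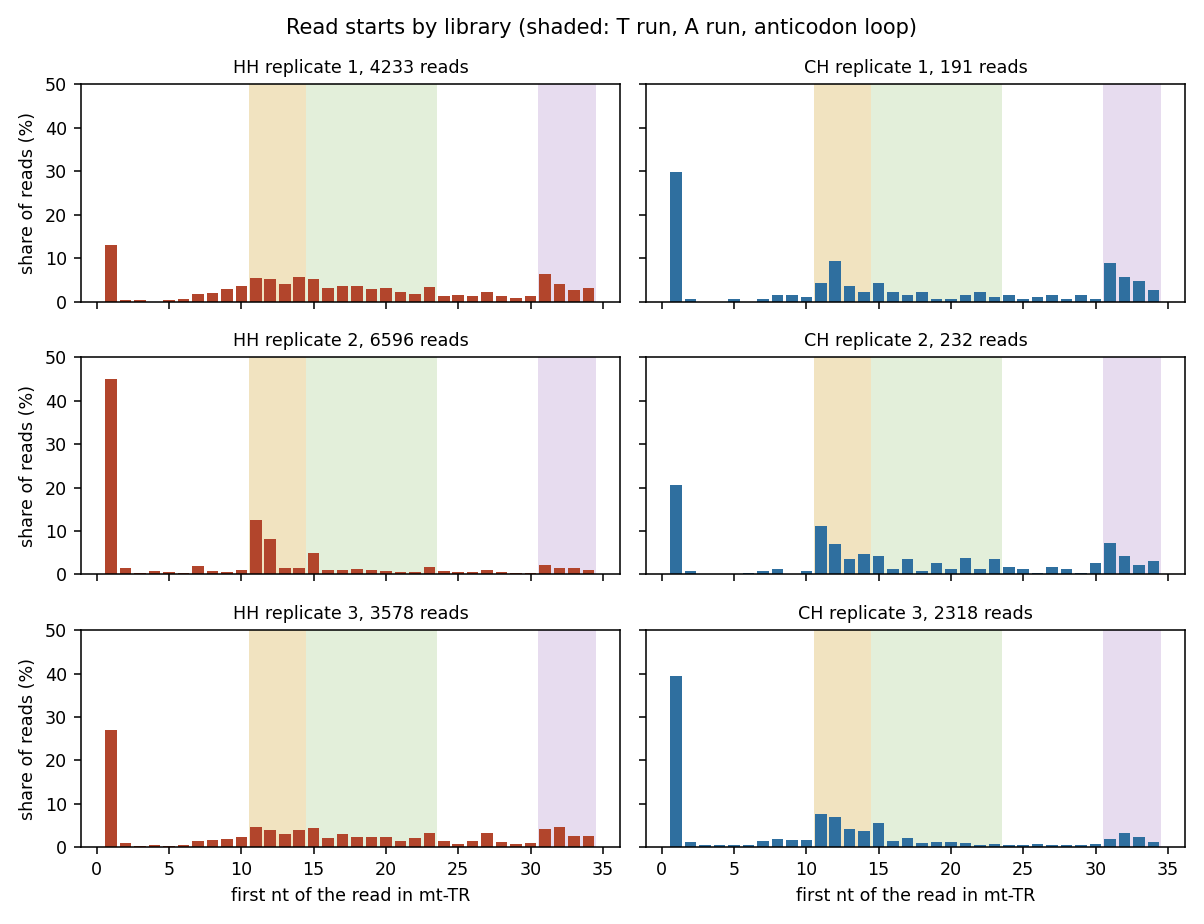
Share of reads (%) by the first base of the read in mt-TR (nt), 1 panel per library, with the T run, the A run and the anticodon loop shaded from left to right. Starts at nt 1 lead in all 6 panels, at 13.1% to 45.01%, and starts near nt 11 and nt 31 rise above their surroundings.

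Among ends without the CCA, the end of the predominant 5′ fragment of the study was taken first. The site took 2.46%, 42.7% and 10.6% of reads in HH and 14.7%, 18.1% and 18.5% in CH. The CH libraries differed from each other by no more than counting error, while HH held both the lowest and the highest library. The means were 18.6% ± 21.3 and 17.1% ± 2.11 (exact permutation test, p = 1). The mean of HH rested on replicate 2, and without that library the difference of 1.49 percentage points turned to -10.6.

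The end at nt 45, 28 nt before the mature end, took 1.28%, 11.6% and 3.55% of reads in HH and 8.90%, 8.19% and 12.2% in CH. HH replicates 1 and 3 lay below all CH libraries and HH replicate 2 lay among them. The means were 5.46% ± 5.41 in HH and 9.75% ± 2.12 in CH, a difference of -4.29 percentage points (exact permutation test, p = 0.3).

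Both ends lie between an A and a T. Of the 31 positions at which a read could end 3 or more nt before the mature end, 7 (22.6%) have A before and T after the end. These positions held 27.4%, 82.7% and 45.1% of such ends in HH and 67.1%, 84.2% and 60.7% in CH. The 7 positions include both of the ends described above, from which this pair of bases was taken. The shares therefore follow in part from that choice and cannot be read against the 22.6%. A preference for ends between A and T was not tested. Positions with T before and A after, 4 of 31 (12.9%), held 12.9% ± 4.76 in HH and 8.59% ± 1.75 in CH.

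The remaining ends were spread over many positions. Ends 1 or 2 nt before the mature end made up 4.81% ± 2.36 in HH and 4.25% ± 1.67 in CH (exact permutation test, p = 0.9). Ends 3 to 18 nt before it, in the T loop past the site, the T stem and the acceptor stem, made up 8.45% ± 2.74 and 5.71% ± 3.73 (exact permutation test, p = 0.4). Ends 20 or more nt before it, other than nt 45, made up 10.4% ± 2.28 and 9.66% ± 5.64 (exact permutation test, p = 0.9). None of the 4 start classes and 6 end classes separated the strains. Of the 34 end positions, 2 (5.88%) had shares without overlap, and these were nt 40, with 0.305% ± 0.143 in HH and 0.680% ± 0.325 in CH, and nt 60, with 0.643% ± 0.0846 and 0.129% ± 0.224. The end at nt 40 had 6, 27 and 13 reads in HH and 2, 1 and 13 in CH.

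Lengths followed from these starts and ends. Mean read length was 53.4, 50.1 and 51.8 nt in HH and 50.6, 51.1 and 51.5 nt in CH, with means of 51.8 ± 1.66 and 51.05 ± 0.417 nt (exact permutation test, p = 0.6). Reads of 40 to 44 nt include 5′ fragments that end before nt 45, 3′ fragments from the anticodon loop and internal fragments from the T run to the site. Of the internal ones, nt 11 to 54 and nt 12 to 54 had 630 and 406 of the 1904 reads of this class in HH replicate 2. In CH replicate 3 they had 83 and 65 of 586. Reads of 40 to 44 nt made up 22.5%, 28.9% and 24.5% in HH and 31.9%, 30.2% and 25.3% in CH. This measure had the lowest p of the 15 (means 25.3% ± 3.25 and 29.1% ± 3.45, difference -3.84 percentage points, exact permutation test, p = 0.2). With the 4 libraries of at least 1000 reads its difference was 0.00709 percentage points. Reads of 45 to 54 nt made up 39.3% ± 11.9 in HH and 38.8% ± 2.12 in CH, and reads of 55 nt or longer 35.4% ± 15.2 and 32.1% ± 1.35 (exact permutation tests, p = 0.8 and 0.7). Of the 30 single lengths, 1 (3.33%) had shares without overlap, 47 nt, with 4.89% ± 1.09 in HH and 3.47% ± 0.632 in CH.

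**Figure D3:**
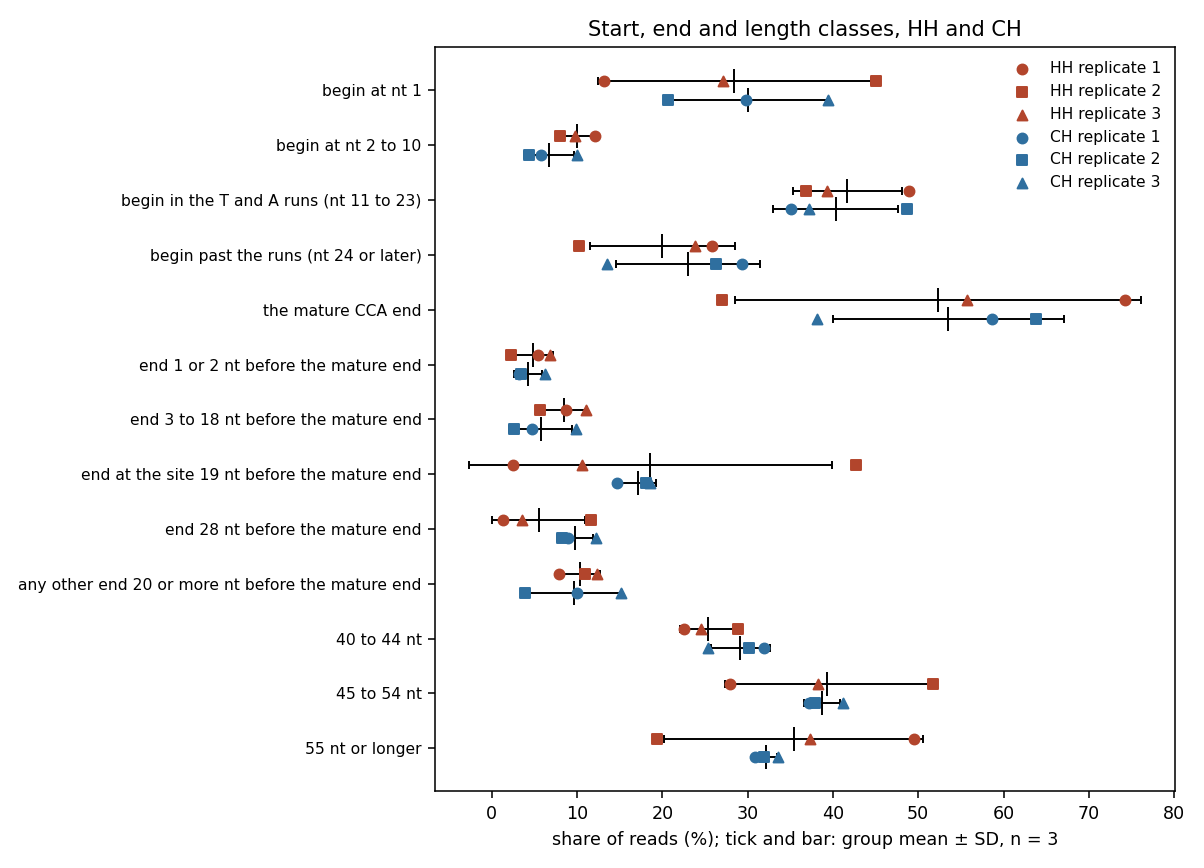
Share of reads (%) in each of the 4 start, 6 end and 3 length classes, with a point for each library and a tick and bar for the mean ± SD of 3 libraries (a bar that passes 0 shows the size of the SD only). HH and CH overlap in all 13 classes, and the bars of HH are widest for the CCA and the site.

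The spread between libraries was also set side by side, though 3 libraries per strain measure an SD poorly. The SD was larger in HH for 10 of the 15 measures, several of which depend on each other. Beside the SD that counting error alone would give at these depths, the SD between HH libraries was 4.63 to 44.3 times as large over the 13 shares (median 14.1), and that between CH libraries 0.504 to 4.82 times (median 2.27). The ratio is smaller in CH in part by construction, since counting error is larger in shallow libraries, and the difference in spread between strains was not tested. For the site, the SD between CH libraries was 0.993 times the counting SD and that between HH libraries 44.3 times.

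**Figure D4:**
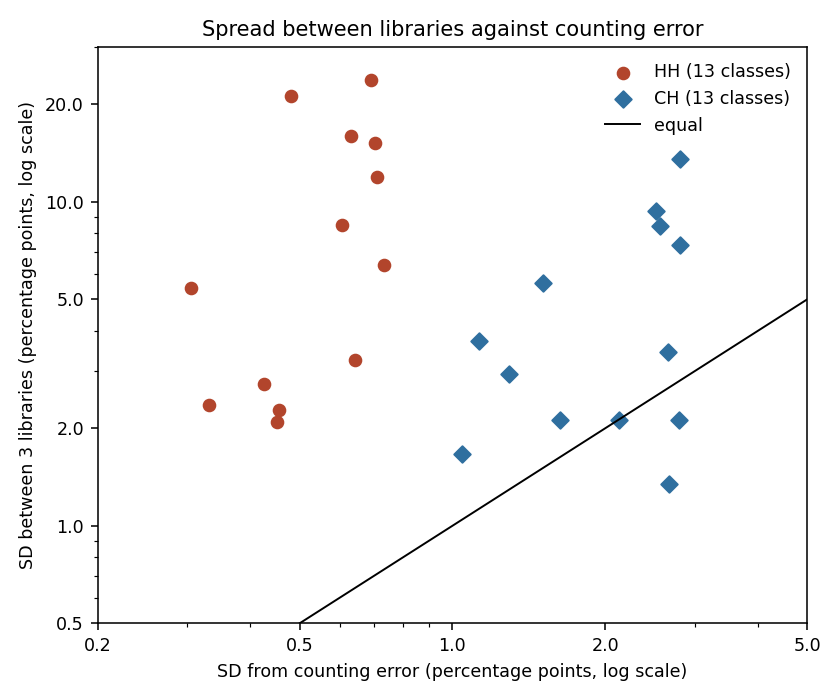
SD between the 3 libraries of a strain against the SD expected from counting error (percentage points, both axes on a log scale) for 13 start, end and length classes, with a line where both are equal. All points of HH lie above the line, at 4.63 to 44.3 times the counting SD, and those of CH lie at 0.504 to 4.82 times.

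Likeness between libraries was measured with Morisita's index over fragments, which is near 1 when reads drawn from 2 libraries meet in the same fragment as often as reads drawn from 1 library, and does not depend on depth on average. Within CH it was 0.906 to 0.982 (3 pairs), within HH 0.267 to 0.862 (3 pairs) and between the strains 0.555 to 0.895 (9 pairs). The lowest value of all 15 pairs was that of HH replicates 1 and 2, of the same strain. HH replicate 3 and CH replicate 1 had an index of 0.895. Pairs of a strain were thus not always more alike than pairs across strains.

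How evenly reads were spread over fragments also varied most in HH. The chance that 2 reads of a library are the same fragment was 2.45%, 8.03% and 2.11% in HH and 3.60%, 3.69% and 3.41% in CH. These are the values of 40.9, 12.5 and 47.4 equally abundant fragments in HH and of 27.7, 27.1 and 29.3 in CH. The CH libraries lay close together and between the HH libraries, and the means of the chance were 4.19% ± 3.32 and 3.57% ± 0.143 (exact permutation test, p = 1).

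The fragment from nt 1 to the site, the predominant 5′ fragment of the study, made up 1.04%, 22.5% and 6.65% of reads in HH. In CH it made up 9.42%, 9.05% and 9.66%. It ranked first in HH replicates 2 and 3 and in CH replicates 1 and 2, came after nt 1 to 45 in CH replicate 3, and ranked 30 in HH replicate 1. The means of 10.1% ± 11.1 and 9.38% ± 0.308 gave a log2 fold change of 0.10 ± 0.99 (SE) in the edgeR quasi-likelihood fit, with an adjusted p of 0.991. Without HH replicate 2 that log2 fold change was -1.29.

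The fragment from nt 1 to 45 made up 1.28%, 10.7% and 3.33% in HH and 8.90%, 7.76% and 11.4% in CH. It was the most abundant fragment of CH replicate 3 and came second in CH replicates 1 and 2 and in HH replicate 2. Its log2 fold change of -0.88 ± 0.92 (SE, edgeR) had an adjusted p of 0.991.

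Internal fragments that end at the site were also rare in HH replicate 1 and abundant in HH replicate 2. The fragment nt 11 to 54, from the first T of the run to the site, made up 0.543%, 9.55% and 1.93% in HH and 1.05%, 6.47% and 3.58% in CH. Among reads that end at the site, starts at nt 1 took 42.3%, 52.7% and 62.96% in HH and 64.3%, 50% and 52.2% in CH. Starts at nt 11 took 20.9% ± 2.31 of site-ended reads in HH and 20.7% ± 14.3 in CH.

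A 3′ fragment led in 1 of the 6 libraries. In HH replicate 1 the most abundant fragment was nt 31 to 73, from the first base of the anticodon loop to the CCA, at 5.72% of reads. It made up 1.97% and 3.75% in HH replicates 2 and 3 and 7.85%, 6.90% and 1.42% in CH. The fragment nt 32 to 73 made up 3.95%, 1.46% and 4.19% in HH and 5.76%, 4.31% and 2.50% in CH. For both fragments the HH library nearest to CH replicate 3 was HH replicate 2, the other library with many 5′ fragments. These are shares of all reads, which fall where 5′ reads are many. Within CCA-ended reads the nearest was HH replicate 3 for both. There nt 31 took 3.73% in CH replicate 3 and 7.70%, 7.29% and 6.72% in HH replicates 1 to 3. For nt 32 the shares were 6.55% and 5.31%, 5.38% and 7.53%.

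Fragments from the T run to the CCA made a ladder of lengths that differ by 1 nt. The fragment nt 12 to 73 made up 4.04%, 1.21% and 2.43% in HH and 5.76%, 4.74% and 3.54% in CH. On average nt 11 to 73 made up 2.47% ± 1.22 in HH and 2.62% ± 1.17 in CH, nt 13 to 73 made up 2.27% ± 1.23 and 3.08% ± 0.546, and nt 14 to 73 made up 2.996% ± 1.81 and 3.02% ± 1.60. The fragment nt 15 to 73, which keeps all of the A run and none of the T run, made up 3.25% ± 0.664 and 3.17% ± 0.480. In each of these 5 fragments the ranges of the strains overlapped.

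Over all fragments that could be tested, none was called different between HH and CH. Of 67 homologous fragments that passed the edgeR filter on low counts, 0 (0%) were called at an adjusted p under 0.05, and 0 (0%) had an unadjusted p under 0.05. With TMM normalization 1 fragment and with DESeq2 2 fragments had an unadjusted p under 0.05, and 0 were called by either. The log2 fold changes were positive in 34 and negative in 33, ran from -1.35 to 1.86 and had a median of 0.01. Their median SE was 0.94, so a doubling was within the error of most fragments, and a p above the threshold does not show that the strains are alike.

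By class of fragment the fold changes lay on both sides as well. Among the 28 CCA-ended fragments tested, 17 were higher and 11 lower in HH, with a median log2 fold change of 0.24. Among 11 site-ended fragments 6 were higher and 5 lower, and among 22 that begin at nt 1, 11 were higher and 11 lower. Of the 10 sequences that the study lists for mtDNA H, 7 were tested here, of which 1 was higher and 6 lower in HH, with a median of -0.43 against 0.01 over all 67. That list was chosen on these libraries. The other 3, nt 11 to 54, nt 11 to 73 and nt 15 to 73, were tested only among the H libraries, where each had an adjusted p of 0.994 (edgeR).

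The lowest p belonged to rare 5′ fragments with ends past the site or before it. The fragment nt 1 to 60, which ends in the T stem, had 17, 23 and 12 reads in HH and 0, 0 and 3 in CH. Its log2 fold change was 1.86 ± 1.09 (SE), with an unadjusted p of 0.0962 and an adjusted p of 0.991 (edgeR). In CH replicates 1 and 2 a count of 0 allows a share of up to 1.57% and 1.29% of reads, above the share of this fragment in any HH library, so a difference was not detectable there. Next came nt 1 to 49, with 5, 7 and 9 reads in HH and 0, 0 and 15 in CH, and nt 1 to 59, with 41, 39 and 58 reads in HH and 0, 0 and 18 in CH.

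Among the 67 fragments, 2 (2.99%) had shares without overlap between the strains. These were nt 1 to 60, at 0.362% ± 0.0350 in HH and 0.0431% ± 0.0747 in CH, and nt 31 to 72, which lacks the last A of the CCA, at 0.323% ± 0.149 and 0.637% ± 0.356. The fragment nt 31 to 72 had 18, 10 and 14 reads in HH and 2, 1 and 10 in CH. Its separation hangs on 1 read in CH replicate 2.

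Since the shares of 5′ and 3′ fragments move against each other from library to library, each kind was also described on its own, with its own reads as the total. This was chosen after the shares had been seen and carries no test. The ends of reads that begin at nt 1 were most often at nt 54 or nt 45 in 5 of the 6 libraries, and most often at nt 47 in HH replicate 1. The share that ended at nt 45 was 9.75%, 23.8% and 12.3% in HH and 29.8%, 37.5% and 29.0% in CH. These ranges did not overlap, as at 3 of the 30 end positions (10%), and the means were 15.3% ± 7.50 and 32.1% ± 4.69. With 3 libraries against 3, ranges without overlap arise with a probability of about 0.1 when nothing differs. This holds for libraries that can be exchanged and for values without ties. CH replicates 1 and 2 are shallow, and both held 0 reads at many of the end positions, so the probability is only a guide here. The 10% seen here does not exceed it, and a difference at nt 45 was not tested. The other such shares given for positions, lengths and fragments of HH and CH are lower.

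Behind the CH values stood 17 of 57 reads, 18 of 48 and 265 of 914. The 95% Wilson intervals of the first pair, 19.5 to 42.7 and 25.2 to 51.6, reached down to the value of HH replicate 2 or near it, and that of CH replicate 3 was 26.1 to 32.02. With reads summed over the libraries of a strain the difference of -16.8 percentage points was -9.86, and in libraries of at least 1000 reads it was -13.7. Neither setting could turn the sign, since the ranges did not overlap.

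The share that ended at nt 54 was 7.94%, 49.98% and 24.5% in HH and 31.6%, 43.8% and 24.5% in CH. It overlapped between the strains, with HH replicate 2 above and HH replicate 1 below all CH libraries. Of the 5′ reads that ended at either place, the share at nt 45 was 40.2% ± 12.9 in HH and 49.6% ± 4.12 in CH, and here the ranges overlapped. Both other positions without overlap were minor, nt 40 with 1.11% ± 0.217 in HH and 2.34% ± 1.07 in CH, and nt 60 with 1.69% ± 1.21 and 0.109% ± 0.190. In CH replicates 1 and 2 they held 2 and 1 reads at nt 40 and 0 and 0 at nt 60.

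In place of nt 45 and nt 54, the 5′ reads of HH replicates 1 and 3 held more minor ends. Nt 47, at the first base of the T stem, took 13%, 6.64% and 10% in HH and 8.77%, 8.33% and 5.36% in CH. Nt 59 took 7.40%, 1.31% and 5.98% in HH and 1.97% in CH replicate 3. In CH replicates 1 and 2 it had 0 of 57 and 0 of 48 reads, which allow shares of up to 5.26% and 6.25%. The T loop other than the site held 12.1% ± 6.89 of 5′ ends in HH and 4.93% ± 2.69 in CH. The shares of HH replicate 2 lay within the range of the CH libraries at nt 47 and nt 59.

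Within HH, reads with the CCA were more alike across libraries than 5′ reads were, and within CH this held for 1 of 3 pairs. Morisita's index over their starts was 0.92 to 0.978 within HH, 0.898 to 0.983 within CH and 0.87 to 0.989 between the strains. Over the ends of 5′ reads it was 0.421 to 0.825 within HH, 0.919 to 1.01 within CH and 0.44 to 0.984 between. The libraries of HH thus differed in how many 3′ fragments they held and in where 5′ fragments ended, and less in where 3′ fragments began.

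Within CCA-ended reads, starts at nt 12, the second T of the run, took 5.44%, 4.49% and 4.37% in HH and 9.82%, 7.43% and 9.27% in CH. The ranges did not overlap, as at 2 of the 30 start positions (6.67%). The other position was nt 7, the last base of the acceptor stem, with 2.04% ± 0.181 in HH and 1.24% ± 0.304 in CH. It held 1, 2 and 13 reads in CH replicates 1 to 3. Starts at nt 11 did not follow nt 12 and took 4.82% ± 1.07 and 5.03% ± 2.04.

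By structural element, CCA-ended reads that began in the A run made up 34.3% ± 2.81 in HH and 27.3% ± 4.74 in CH. The lowest HH value, 32.6%, stood next to the highest CH value, 31.8%. Starts in the T run made up 19.2% ± 2.17 and 25.7% ± 4.63, starts in the anticodon loop 21.7% ± 1.39 and 26.8% ± 8.18, and starts between the A run and that loop 13.7% ± 1.67 and 11.95% ± 1.90. Without CH replicate 1, the difference in the A run of 6.98 percentage points was 4.50, and without CH replicate 2 it was 9.22. For starts at nt 12 the difference of -4.08 lay between -4.78 and -3.59 when each library was left out in turn. In both cases the ranges did not overlap, so leaving out 1 library could not turn the sign. These values therefore show no stability.

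**Figure D5:**
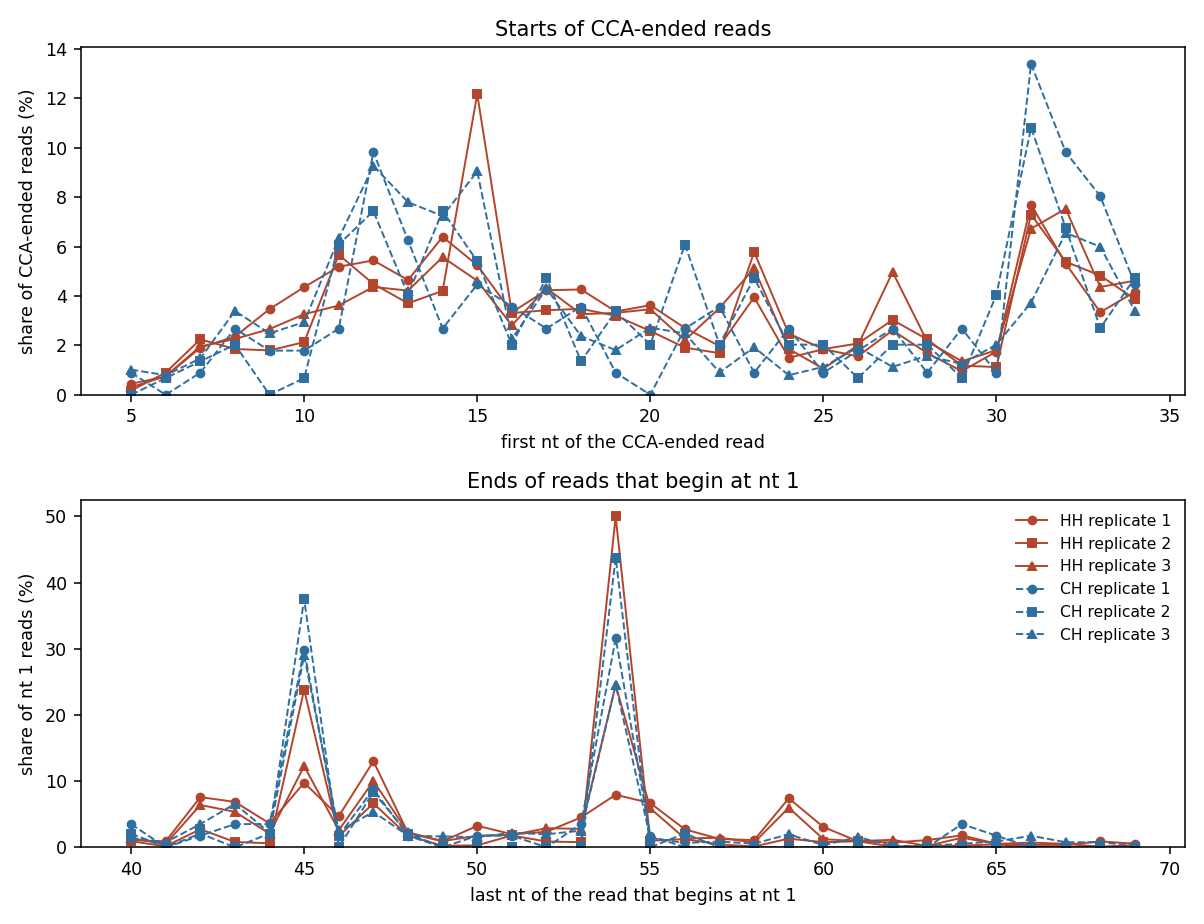
Top, share of CCA-ended reads (%) by their first base (nt); bottom, share of reads that begin at nt 1 (%) by their last base (nt), with a line for each of 3 HH and 3 CH libraries. At nt 45 the 3 CH libraries (29.0% to 37.5%) lie above the 3 HH libraries (9.75% to 23.8%), and at nt 54 HH replicates 1 and 2 stand farthest apart. Ranges without overlap were found at 3 of the 30 end positions (10%), and a difference at these positions was not tested.

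The same exchange of nuclei exists on C57BL/6J mtDNA, in HC and CC mice, where CC is wild type and HC is the MNX strain, so the nucleus H is now in the MNX strain. The difference between H and C nuclei in the share of reads that begin at nt 1 was -1.58 percentage points on mtDNA H and -18.1 on mtDNA C, where HC had 51.8% ± 20.8 and CC 69.9% ± 15.03. For the CCA end it was -1.19 on mtDNA H and 17.5 on mtDNA C, with 25.5% ± 23.8 in HC and 7.99% ± 4.92 in CC. For the site it was 1.49 and -13.9. The HC libraries held 733, 1547 and 7903 reads and the CC libraries 15335, 17436 and 23805. The HC mean for the CCA end rested on replicate 1, the shallowest, with 52.9% against 13.4% and 10.2% in replicates 2 and 3. None of the 15 differences between these nuclear effects passed the test, with p from 0.105 to 0.955 and adjusted p from 0.845 to 0.955 (two-sided exact permutation test over 400 arrangements, 3 libraries per strain). A length class does not hold the same fragments on both types, since mature mt-TR is 73 nt long in H and 71 nt in C. The fragment from nt 1 that ends 28 nt before the mature end is 45 nt long on mtDNA H and 43 nt on mtDNA C, and so falls in different classes. With that limit, the lowest p belonged to reads of 40 to 44 nt, at -3.84 percentage points on mtDNA H and 5.49 on mtDNA C. Reads of 45 to 54 nt differed by 0.560 on mtDNA H and -15.9 on mtDNA C, where HC and CC did not overlap (exact permutation test, p = 0.1), as in 1 of the 15 measures on mtDNA C and 0 of the 15 on mtDNA H.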

How the data were processed

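The deposited values are whole-number counts of reads per fragment sequence and library, without normalization. Per their methods and the processing notes in the labels, the authors checked reads (FastQC 0.12.1), extracted and collapsed unique molecular identifiers (UMI-tools 1.1.6), trimmed adapters (cutadapt 5.0) and mapped reads to mature mt-TR of each library's own mtDNA type with no gaps or mismatches, then removed sequences that mapped elsewhere in mm10 (BWA 0.7.18 and Bowtie 1.3.1 are named). All 18 columns were matched to samples and 0 were left over.

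Starts were read from the position of each sequence in its row, ends from the distance to the mature end, and lengths from both. Rows leave out 1 or 2 run bases for 155 and 209 of the 409 H fragments, which were put back from the H sequence that the study lists. The mtDNA C sequence was matched to GENCODE M21 (mm10). Shares are percentages of a library's reads of 40 to 69 nt. Whole mt-TR and reads under 40 nt were not used here, so a share depends on this length window. Depth was 191 to 6596 reads per library with mtDNA H. Wilson intervals (95%) cover counting error only.

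For 15 measures per library, HH and CH were set against each other with a two-sided exact permutation test (20 arrangements) and p-values were adjusted by the Benjamini-Hochberg method. Single fragments were tested with edgeR 4.0.16 (glmQLFit and glmQLFTest, R 4.3.3, limma 3.58.1) in one fit of all 18 libraries and 6 groups, with the table total as library size, on homologous fragments of the 3 mtDNA types. These share the aligned first base and the distance from the mature end. Of 519, 450 could be held by all types and 67 passed filterByExpr. Those left out held 9.42% to 18.7% of the reads of the 6 libraries. An SE is the fold change (log2) over the square root of F. Alternatives were TMM, DESeq2 1.42.0, no filter, H libraries alone, gaps at the right of the runs, CH replicates 1 and 2 summed, libraries of at least 1000 reads, reads summed per strain, no reads of the predominant fragment, a replicate block and each library left out. Scripts were tested on simulated data. Python 3.11.15 was used with scipy 1.17.1, pandas 2.3.3, numpy 2.4.6 and, for plots, matplotlib 3.10.9.

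Named fragments are the 10 that the study lists for mtDNA H, the 5 most abundant of each strain, the most abundant of each library and the 3 lowest unadjusted p in edgeR. The fragment nt 31 to 72 was named after its values were seen. The measures, fragments and lists were chosen with earlier results of these data known.

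Replicate numbers did not pair the samples, since over 38 fragments the deviations of same-numbered HH and CH libraries correlated at 0.16, -0.151 and -0.202.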

Additional observations from a re-analysis of the deposited data

Results flagged for a closer look

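The chance that 2 reads of a library are the same fragment was 8.029% in HH replicate 2, far from the other 5 libraries with mtDNA H, which lay between 2.11% and 3.69%. Its gap to the nearest library was 0.732 of the whole range, above Dixon's 95% critical value for 6 libraries. Each of 16 quantities per library was looked at this way, of which chance alone flags about 1 in 20. In the same library 42.7% of reads ended at the site. Whether depth, 6596 reads and the highest of the 6 libraries, has a part in it was not tested.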

How the results depend on the processing

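No measure and no fragment passed an adjusted p of 0.05 under any alternative, and 0 fragments were called in each of 14 edgeR fits and in 1 DESeq2 fit. At 3 libraries against 3 the exact test cannot pass, so this says nothing about stability, and directions are given instead. Among fits of HH against CH that left out 1 library, the difference in percentage points ranged from -9.89 to 6.07 for starts at nt 1, -2.25 to 5.58 for the runs, -7.84 to 1.82 past the runs, -12.2 to 11.5 for the CCA end, -0.453 to 1.85 for ends 1 or 2 nt before it, -10.6 to 9.55 for the site, -2.18 to 3.45 for other ends 20 or more nt before it, -5.66 to 6.24 for 45 to 54 nt, -3.79 to 11.3 for 55 nt or longer and -1.29 to 1.67 for the same-fragment chance. For mean length it was -0.0929 to 1.56 nt. It kept its sign for starts at nt 2 to 10 (2.08 to 4.91), ends 3 to 18 nt before the mature end (1.17 to 4.80), the end at nt 45 (-7.34 to -2.19) and 40 to 44 nt (-5.77 to -2.44). Of these, only the end at nt 45 also kept it under the 2 settings that follow.

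With libraries of at least 1000 reads, which leave 1 CH library, the sign turned for starts at nt 2 to 10 (-0.0213) and past the runs (6.50), the CCA end (14.2), ends 1 or 2 nt (-1.36), 3 to 18 nt (-1.39) and otherwise 20 or more nt before it (-4.78), 40 to 44 nt (0.00709) and 45 to 54 nt (-1.84). With reads summed per strain it turned for starts past the runs (2.53), the CCA end (6.27), ends 1 or 2 nt (-1.44), 3 to 18 nt (-1.01) and otherwise 20 or more nt before it (-3.46), 55 nt or longer (-0.551) and the same-fragment chance (-0.0309). With CH replicates 1 and 2 summed it turned for the CCA end (2.52), other ends 20 or more nt before it (-0.517) and 45 to 54 nt (-0.0593), and without the predominant fragment for the same-fragment chance (-0.196).

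For the difference of the nuclear effects, the range over fits without 1 library crossed 0 for ends 1 or 2 nt before the mature end (-0.0949 to 2.21), 3 to 18 nt (-0.938 to 4.96), 28 nt (-7.25 to 7.73) and otherwise 20 or more nt before it (-1.24 to 4.47), mean length (-0.604 to 1.28 nt) and 55 nt or longer (-14.2 to 1.65). The log2 fold change crossed 0 for nt 1 to 54 (-1.29 to 0.64), nt 14 to 73 (-0.52 to 0.39), nt 32 to 73 (-0.65 to 0.0098) and nt 1 to 49 (-1.80 to 6.46, where without CH replicate 3 all CH counts are 0). TMM turned nt 14 to 73 (0.24), nt 31 to 73 (0.028) and nt 32 to 73 (0.0089), and libraries of at least 1000 reads turned the same 3 (0.12, 1.42 and 0.35). The cause was not tested. Unadjusted p under 0.05 came for 8 of 450 fragments without a filter, 4 of 73 without HH replicate 2 and 4 of 102 in libraries of at least 1000 reads.

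With a replicate block edgeR called 0 fragments, and the log2 fold change of nt 1 to 54 was -0.38. Nothing in the labels links libraries of the same replicate number, and HH replicate 1 correlated best with CH replicate 2 (0.196). The block changed no other direction among the named fragments tested. Depth limits CH replicates 1 and 2, in which a count of 0 allows shares of up to 1.57% and 1.29%. The shares within 5′ or CCA-ended reads were added after the data were seen.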
